A study of Mus musculus with 5 samples.

Results

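Collagen chain genes were read in aortas of diabetic and control mice from Affymetrix arrays. Members were all probe sets annotated with a single gene symbol made of Col, a number, the letter a and a number. That gave 58 of the 22626 probe sets that are not controls, and 36 of the 12393 named genes. They fall into 17 probe sets of 9 fibrillar genes, 12 of 8 basement membrane genes and 29 of 19 other collagen genes.

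All mice were males of the strain BKS.Cg-m +/+ Lepr db/J, 16 to 20 weeks old and on regular chow. One group was homozygous for the leptin receptor allele Lepr db (db/db), which leads to obesity and diabetes, and the other was heterozygous (db/+), so every mouse carried at least one copy of the allele in every cell. Each array held RNA pooled from 6 aortas after removal of adventitia and surrounding fat. There were 3 db/db arrays (replicates 1, 2 and 3) and 2 db/+ arrays (replicates 2 and 3). All arrays of the series were used, and none is labelled db/+ replicate 1. A pool averages its animals, so the spread between arrays is that between pools.

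Collagens are secreted trimers wound from chains that repeat glycine at every turn of a triple helix. Fibrillar types assemble into the ropes that bear load in the artery wall, type IV forms the sheet of the basement membrane under endothelium and around smooth muscle cells, and the remaining types bead, bridge or decorate these structures. In arteries, smooth muscle cells and fibroblasts make most of this matrix, and endothelial cells contribute basement membrane.

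Values are MAS5 signals, which the authors scaled to the same trimmed mean on every array. Brightness depends on the probes, so signals of different probe sets give no ranking of genes. Log2 changes are db/db minus db/+ on log2(signal + 16), with the standard error (SE), the 95% interval and p from limma. Adjusted p-values (Benjamini-Hochberg) cover all 13575 probe sets left after dim ones were set aside. Between arrays, Pearson's r of these log2 values was 0.952 to 0.977, and the 4 pairs that include db/db replicate 1 gave 0.952 to 0.965.

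Smooth muscle markers fixed for checking the tissue were present on every array, with summed signals of 10 genes between 23842 and 31893. Sums over 10 endothelial markers were 1440, 1781 and 1853 in db/db and 2392 and 2251 in db/+. Sums over 10 macrophage markers were 3065, 2737 and 3002 against 4180 and 5198 in the same order of arrays, and neither sum overlapped between genotypes. At an unadjusted p under 0.05, 6 of the 10 endothelial and 8 of the 10 macrophage markers were lower in db/db, where 4.15% of all tested probe sets were. All markers of both lists passed the filter on low signals. Fat markers (9 genes) summed to between 13012 and 23459 in db/db and to 18405 and 18610 in db/+, although fat had been stripped. Heart muscle markers (10 genes) summed to 4149 in db/db replicate 2 and to between 685 and 1687 on the other arrays. In pooled tissue, fewer cells of a type and less RNA per cell cannot be told apart.

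No collagen probe set differed between genotypes past the threshold of 0.05 on the adjusted p. Of the 58 probe sets, 37 passed the filter on low signals, and these stood for 25 of the 36 genes. Among all tested probe sets the same rule called 11 lower (0.081%) and 0 higher (0%), so the collagens' count of 0 is not a result about collagens. The smallest adjusted p of a collagen was 0.452. At an unadjusted p under 0.05, 1 of the 37 probe sets was higher in db/db, that of Col15a1, and 0 were lower. Of all tested probe sets, 540 (3.98%) were higher and 564 (4.15%) lower by the same rule.

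Each interval gives a range of log2 changes for its own tested probe set and does not cover the collagens jointly. For 36 of the 37 collagen probe sets the 95% interval lay within a 2-fold change either way, as it did for 93.2% of all tested probe sets. The exception was the dimmer probe set of Col1a1. Half-widths of the collagen intervals ran from 0.34 to 0.84 on the log2 scale, with a median of 0.40. Differences smaller than that, and larger ones too, could miss the threshold on the adjusted p. Col15a1, with a log2 change of 0.52, had an adjusted p of 0.452.

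**Figure D1:**
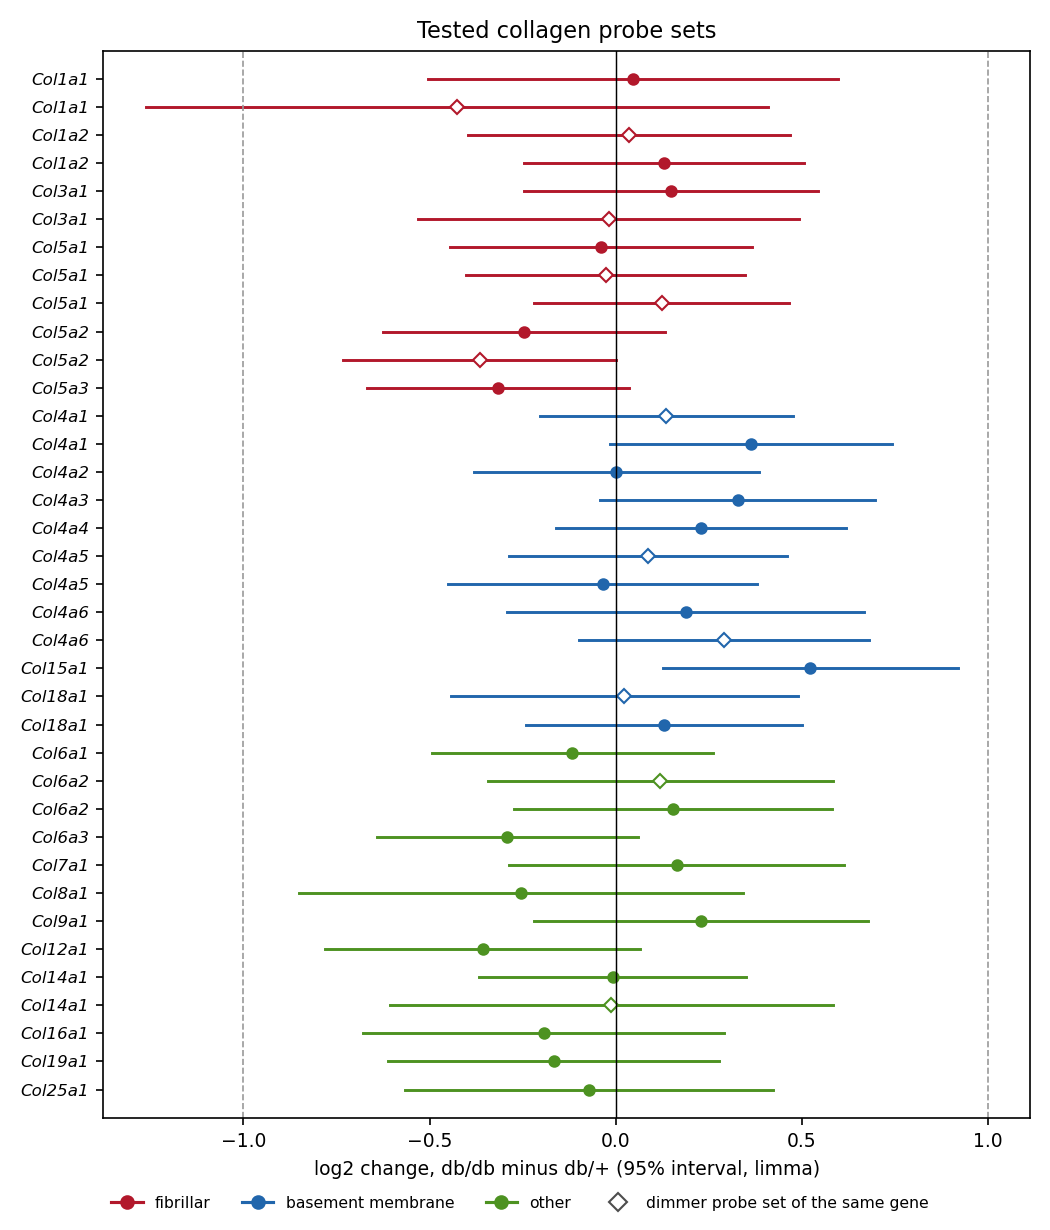
Log2 change between genotypes (db/db minus db/+, x axis) with its 95% interval for the 37 tested collagen probe sets (y axis, by gene), with dashed lines at a 2-fold change. Filled circles are the brightest probe set of a gene and open diamonds its dimmer ones; only the interval of Col15a1, from 0.13 to 0.92, lies wholly on one side of 0, and only that of the dimmer Col1a1 probe set crosses a dashed line.

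Direction within the classes was as follows, taking the brightest probe set of each gene. Of the 8 basement membrane genes, all of them tested, 7 had a positive log2 change, with a median of 0.21. Of the 6 fibrillar genes tested, 3 were positive (median 0.0046), and of the 11 other genes tested 3 were positive and 8 negative (median −0.12). Over all 8263 genes tested the share with a positive change was 53.9% and the median 0.02. The members were chosen with these data known, and the classes are small, so these counts are descriptions without a test.

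**Figure D2:**
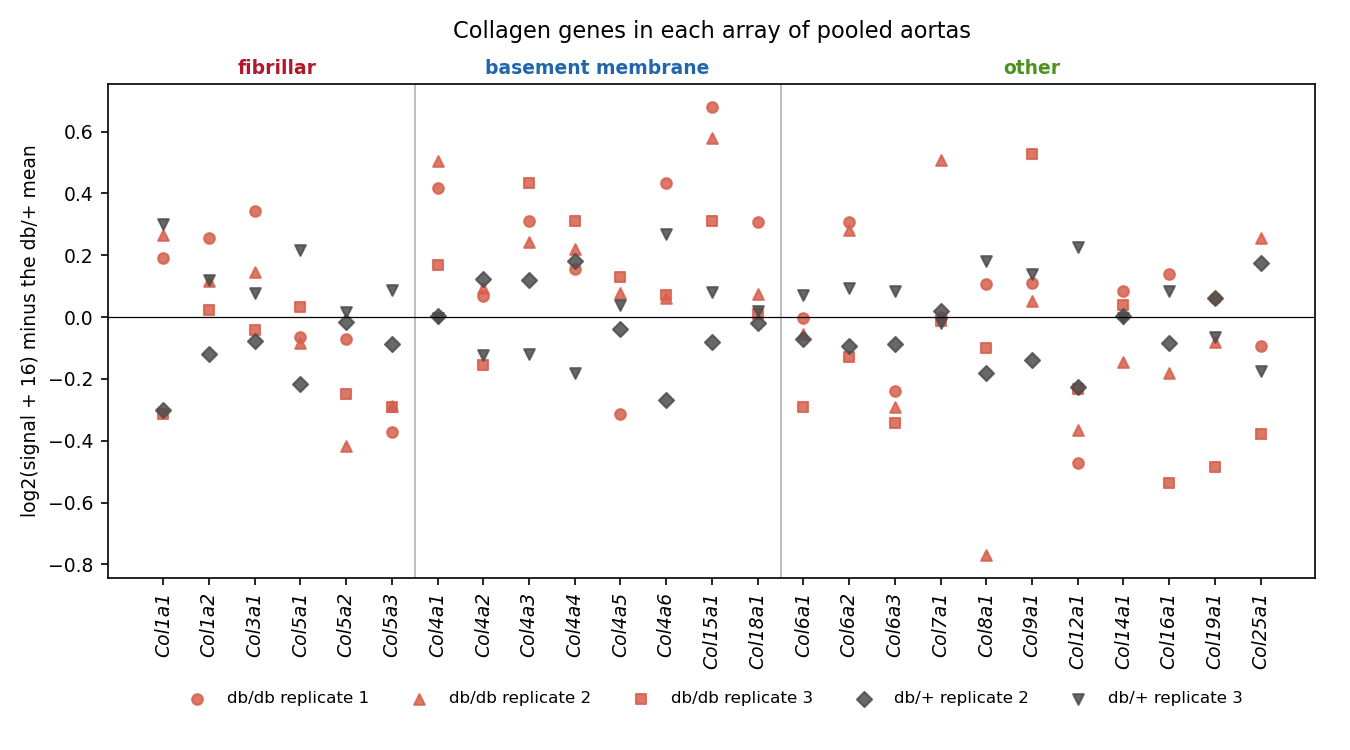
Log2 signal of each tested collagen gene on each array (y axis, log2(signal + 16) minus the mean of both db/+ arrays; x axis, genes by class), with db/db arrays in red and db/+ arrays in grey. All 3 db/db arrays lie above both db/+ arrays for Col15a1, Col4a1 and Col4a3 and below them for Col5a2, Col5a3, Col6a3 and Col12a1.

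The smallest p among the collagens was that of Col15a1, counted here with the basement membrane genes; the next smallest was that of a fibrillar probe set, of Col5a2 (unadjusted p = 0.0506, adjusted p = 0.615). Col15a1 encodes type XV collagen, a proteoglycan that links basement membranes to the fibrils around them. Its signal was 634, 591 and 487 in the db/db arrays and 368 and 413 in the db/+ arrays. Every db/db pool was therefore above both db/+ pools, with means of 571 ± 75.8 (SD, n = 3) and 390 ± 31.9 (SD, n = 2). The log2 change was 0.52 (SE 0.17, 95% interval 0.13 to 0.92, unadjusted p = 0.0154, adjusted p = 0.452). It was 0.44 without db/db replicate 1 (adjusted p = 0.666) and likewise 0.44 without db/+ replicate 2 (0.999), and over all alternatives the adjusted p ran from 0.322 to 0.999. The other multiplexin gene, Col18a1, gives the chain from which endostatin is cut. Its brightest probe set read 3326, 2825 and 2703 in db/db and 2651 and 2719 in the controls, and db/db replicate 3 lay between these (log2 change 0.13, SE 0.16, adjusted p = 0.895). A second probe set of Col18a1 gave 0.02.

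Type IV collagen is built from 6 chains, and all were on the array. Col4a1 and Col4a2 encode the chains found in nearly every basement membrane, and they assemble with each other. The brightest Col4a1 probe set read 2333, 2481 and 1965 in db/db against 1748 and 1741 in db/+, without overlap (log2 change 0.36, SE 0.17, 95% interval −0.02 to 0.74, adjusted p = 0.637). The second Col4a1 probe set read 1368, 1409 and 1441 against 1261 and 1294, again without overlap but with a smaller log2 change of 0.14 (SE 0.15, adjusted p = 0.876). Its partner Col4a2 did not show that order: 1300, 1322 and 1112 in db/db lay among 1350 and 1138 in the db/+ pools (log2 change 0.0021, 95% interval −0.38 to 0.39, adjusted p = 0.998). The difference between the partners' changes was not tested.

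Col4a3 and Col4a4 encode chains of specialised basement membranes such as those of kidney and lung, and their signals were near 39.5, the level at which probe sets were set aside; the added 16 shrinks folds of such low signals. Col4a3 read 50.8, 47.7 and 56.7 in db/db and 42.5 and 33.6 in db/+, which did not overlap (log2 change 0.33, SE 0.16, adjusted p = 0.665). Col4a4 read 41.0, 43.7 and 47.5 against 42.0 and 29.2. One control pool thus sat inside the db/db range (log2 change 0.23, SE 0.17, adjusted p = 0.811).

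Col4a5 and Col4a6 encode chains that join in the basement membranes of smooth muscle. Col4a5 read 651, 858 and 890 in db/db and 790 and 835 in db/+ at its brightest probe set, where the db/db pools spread around the controls (log2 change −0.03, SE 0.18, adjusted p = 0.976). At the second Col4a5 probe set the values were 539, 438 and 524 against 481 and 455 (log2 change 0.09, SE 0.16). For Col4a6 they were 566, 434 and 437 against 342 and 503, and the control pools lay further apart than the db/db pools (log2 change 0.19, SE 0.21, adjusted p = 0.878). The dimmer Col4a6 probe set read 244, 279 and 231 against 181 and 225, with all db/db arrays above both controls by a narrow margin (log2 change 0.29, SE 0.17, adjusted p = 0.738).

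These 2 genes lie head to head on chromosome X, 1274 bases apart in the RefSeq annotation of GRCm38.p6, and are read in opposite directions. The bases just outside each gene's outermost start, both taken from the stretch between the genes, are shown because the chains are made from neighbouring starts and had log2 changes of −0.03 and 0.19. They come from the RefSeq promoter table of GRCm38.p6, 5′ to 3′ in the direction of each gene, chrX:141475250-141475369 on the plus strand for Col4a5 and chrX:141474096-141474215 on the minus strand for Col4a6.
Col4a5: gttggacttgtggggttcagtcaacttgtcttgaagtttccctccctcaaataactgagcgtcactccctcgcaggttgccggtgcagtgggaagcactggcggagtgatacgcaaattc
Col4a6: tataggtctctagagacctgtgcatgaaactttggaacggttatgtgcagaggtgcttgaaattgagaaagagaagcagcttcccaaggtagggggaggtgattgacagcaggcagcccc
Capitals would mark a TATA box, a CCAAT box or a GC box on either strand, and neither stretch held one. The TATA box was searched as TATAAA, found in 6.34% of windows of this length before the starts of the 32851 promoters in the table. The CCAAT box was searched by those letters, found in 21.3% of the windows. The GC box was searched as GGGCGG, found in 26.5%. The absence of these letters says nothing about the factors that bind there.

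Over all 37 tested collagen probe sets, 6 (16.2%) had all db/db arrays above both db/+ arrays and 5 (13.5%) below. These shares are near the 13.1% and 11.9% of all tested probe sets. Of the 13 for other collagens, 0 were above and 2 below. Of the 12 for basement membrane chains, 5 were above. They belong to Col15a1, Col4a1 (both probe sets), Col4a3 and Col4a6. The reverse order was found at 0 of the 12, where 11.9% of all tested probe sets showed it. Probe sets of one gene share its transcripts, so the 12 are not independent. Without db/db replicate 1 the count of higher ones was 7, where 18.4% of all tested probe sets met the rule. Without db/+ replicate 2 Col4a4 no longer passed the filter, the class median was 0.12 and 5 of the remaining 7 genes were positive. Endothelial cells line a basement membrane, and the summed endothelial markers were lower in every db/db pool, opposite to Col15a1 and Col4a1. Smooth muscle cells are also wrapped in basement membrane, and 9 of the 10 smooth muscle markers had a positive log2 change, with a median of 0.19. At 3 of the 10 all db/db arrays were above both controls, where 13.1% of all tested probe sets were. The part of either cell type in these values was not tested.

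Fibrillar collagens showed no common direction. Type I collagen is the main load-bearing fibril, a trimer of chains from Col1a1 and Col1a2. The brightest Col1a1 probe set read 2884, 3037 and 2029 in db/db and 2045 and 3114 in db/+, with both genotypes spanning the same range (log2 change 0.05, SE 0.24, adjusted p = 0.975). The brightest Col1a2 probe set read 6090, 5535 and 5180 against 4691 and 5551 (log2 change 0.13, SE 0.17, adjusted p = 0.896). Its second probe set gave 0.04 (SE 0.19). Col3a1, for the type III collagen that shares fibrils with type I in elastic arteries, read 3849, 3358 and 2946 against 2877 and 3200 (log2 change 0.15, SE 0.17, 95% interval −0.25 to 0.54, adjusted p = 0.888). The second Col3a1 probe set read 414, 304 and 374 against 290 and 461, a log2 change of −0.02.

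The dimmer probe set of Col1a1 stood apart from the brighter one. It read 559, 455 and 556 in db/db and 414 in db/+ replicate 2, but 1197 in db/+ replicate 3. The log2 change was −0.43 with a wide interval from −1.26 to 0.41 (adjusted p = 0.838). Leaving out db/+ replicate 2 gave −1.17 (adjusted p = 0.388), and leaving out db/+ replicate 3 gave 0.32 (adjusted p = 0.998), so a single control pool set its sign.

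The control pools differed from each other at most fibrillar probe sets. At their brightest probe sets all 6 tested fibrillar genes were higher in db/+ replicate 3 than in db/+ replicate 2. Of all 8263 genes tested, 4477 were. Replicate 2 was instead the higher at both dimmer Col5a1 probe sets (269 against 249 and 547 against 541). The same held at the dimmer Col5a2 probe set (184 against 152). The class median was −0.25 without db/+ replicate 2 and 0.20 without db/+ replicate 3. Correspondingly, 7 of the 12 tested fibrillar probe sets lay above db/+ replicate 2 on every db/db array, and 7 lay below db/+ replicate 3 on every db/db array, where 25.9% and 23.8% of all tested probe sets did. With both controls the counts were 1 higher and 3 lower, against 13.1% and 11.9%.

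The fibrillar genes with all db/db arrays below both controls, Col5a2 and Col5a3, encode chains of type V collagen, which sits inside type I fibrils and limits their width. Col5a2 read 1197, 939 and 1057 in db/db against 1245 and 1272 in db/+ at its brightest probe set, without overlap (log2 change −0.25, SE 0.17, adjusted p = 0.786). At the second Col5a2 probe set the values were 134, 122 and 122 against 184 and 152, also without overlap (log2 change −0.37, SE 0.16, 95% interval −0.73 to 0.0012, adjusted p = 0.615). Col5a3 read 61.4, 66.0 and 65.8 against 78.1 and 90.4, so that its db/db pools lay close together below both controls (log2 change −0.32, SE 0.15, adjusted p = 0.661). Both chains thus gave the same order at 3 tested probe sets, none of them past the threshold.

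Col5a1, the chain present in most type V trimers, did not follow. Its brightest probe set read 646, 636 and 692 in db/db, inside the control range of 580 to 788 (log2 change −0.04, SE 0.18, adjusted p = 0.975). The second gave −0.03. The third read 619, 568 and 598 against 547 and 541, with no overlap in the upward direction (log2 change 0.12, SE 0.15, adjusted p = 0.893).

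**Figure D3:**
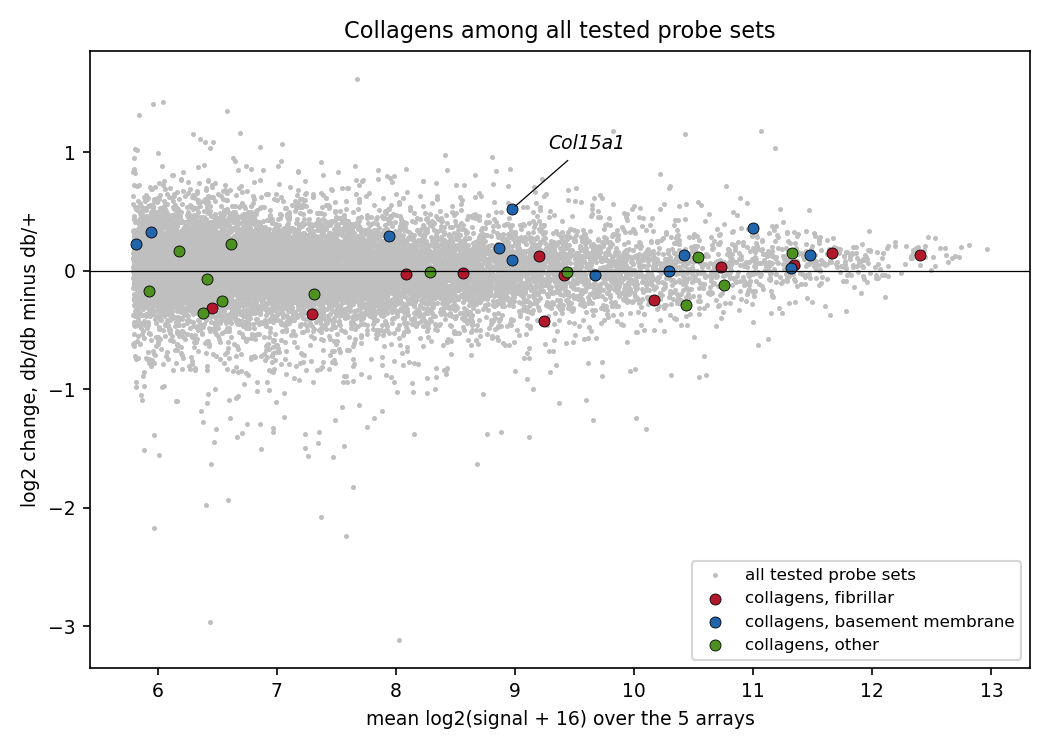
Log2 change between genotypes (y axis, db/db minus db/+) against mean log2(signal + 16) over the 5 arrays (x axis) for all 13575 tested probe sets in grey, with the 37 collagen probe sets coloured by class. The collagens lie between −0.43 and 0.52, with Col15a1 highest.

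Among the other collagens, type VI forms beaded filaments that anchor cells to the matrix. Its chains are secreted together as a single molecule. Their log2 changes differed in sign, but all their intervals include 0, and the differences between chains were not tested. Col6a3 read 1309, 1263 and 1217 in db/db and 1458 and 1643 in db/+, without overlap (log2 change −0.29, SE 0.15, 95% interval −0.64 to 0.06, adjusted p = 0.692). Col6a1 read 1794, 1728 and 1467 against 1708 and 1890 (log2 change −0.12, SE 0.17, adjusted p = 0.905). Col6a2 read 2964, 2915 and 2188 against 2242 and 2555 (log2 change 0.15, SE 0.19, adjusted p = 0.893), and its second probe set gave 0.12. In Col6a1 and Col6a2 the lowest value belonged to db/db replicate 3, and both genotypes overlapped.

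The fibril-associated collagens bind to the surface of fibrils, and 5 of their 9 genes were tested. Col12a1, whose product is found in tissues under tension, read 53.8, 59.1 and 66.3 in db/db against 66.7 and 97.2 in db/+. The ranges did not overlap, but the highest db/db value and the lowest control differed by less than 1 signal unit (log2 change −0.36, SE 0.19, adjusted p = 0.682). With db/+ replicate 2 left out its log2 change was −0.58 (adjusted p = 0.847), and with db/+ replicate 3 left out −0.13 (adjusted p = 0.998). Col14a1 read 720, 610 and 696 against 679 and 676 at its brightest probe set (log2 change −0.0074, SE 0.16, adjusted p = 0.994). Its second probe set spread more, with 406, 202 and 309 against 276 and 320 (log2 change −0.01, SE 0.26). Col16a1 read 173, 136 and 103 against 146 and 166 (log2 change −0.19, SE 0.21, adjusted p = 0.878), where db/db alone covered the whole range.

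Col19a1 and Col9a1 had low signals. Col19a1 read 52.2, 45.8 and 30.7 against 52.2 and 46.5 (log2 change −0.17, SE 0.20, adjusted p = 0.889). Col9a1, a cartilage collagen that coats type II fibrils, read 80.5, 76.5 and 112.8 in db/db against 65.1 and 82.4 in the db/+ pools (log2 change 0.23, SE 0.20, adjusted p = 0.838). For Col9a1 only db/db replicate 3 was above both control pools. For Col19a1 replicates 2 and 3 of db/db were below both, replicate 2 by less than 1 signal unit.

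The remaining tested members belong to separate families. Col8a1, a short-chain collagen made by vascular cells, read 95.4, 44.6 and 80.4 in db/db and 75.2 and 101.1 in the db/+ pools (log2 change −0.25, SE 0.26, adjusted p = 0.871), and db/db replicate 2 alone was below the controls. Without that array its log2 change was 0.0040. Col7a1, of the anchoring fibrils under epithelia, read 51.7, 80.3 and 51.1 against 52.6 and 50.9 (log2 change 0.16, SE 0.20, adjusted p = 0.892), with db/db replicate 2 again the array apart. Without it the value was −0.0074. The membrane-spanning Col25a1 lay between 51.8 and 89.1 on all arrays, and its genotypes overlapped (log2 change −0.07, SE 0.22).

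For 11 genes no probe set passed the filter, and 4 further probe sets below it belonged to tested genes. They were the cartilage collagens Col2a1, Col11a1, Col11a2, Col9a2, Col9a3 and Col10a1, the membrane-spanning Col13a1 and Col17a1, the fibril-associated Col20a1 and Col22a1, and Col26a1. Of the 21 probe sets below the filter, 18 never reached a signal of 39.5 on any array. The exceptions were Col11a1 (40.8 in db/db replicate 1), Col11a2 (56.9 in db/db replicate 1) and Col20a1 (47.2 and 39.9 in db/db replicates 1 and 2). At the edge of the filter, Col4a4 was just inside with signals from 29.2 to 47.5 and Col20a1 just outside with signals from 19.4 to 47.2.

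Where a gene had several tested probe sets, as 11 did, their log2 changes differed by between 0.0040 (Col14a1) and 0.47 (Col1a1). The signs differed for 4 of the 11, namely Col1a1, Col3a1, Col4a5 and Col5a1. At 3 of these the values were within 0.17 of each other and close to 0. At Col1a1 the dimmer probe set holds the high reading of 1 control pool.

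Genes that hydroxylate, fold and export collagen chains were read from a list of 27, of which 22 were tested. Past the threshold there were 0 in either direction. The median log2 change was 0.04. At an unadjusted p under 0.05, 2 were higher and 1 lower, where 3.98% and 4.15% of all tested probe sets were. Serpinh1, the chaperone HSP47 that binds the procollagen helix, read 2490, 2188 and 2051 in db/db against 1678 and 1256 in db/+. All db/db pools were above both controls (log2 change 0.62, SE 0.18, adjusted p = 0.386). Creb3l1, a transcription factor of collagen secretion, gave 0.44 (SE 0.18, adjusted p = 0.577), P3h3, a prolyl 3-hydroxylase family member, 0.33 (SE 0.17, adjusted p = 0.678), and P4ha2, a catalytic subunit of prolyl 4-hydroxylase, −0.45 (SE 0.17, adjusted p = 0.544).

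Procollagen processing and cross-linking genes gave 0 past the threshold in either direction among 10 tested of 18, and 0 at an unadjusted p under 0.05 (median −0.0022). Pcolce, which speeds removal of the C-propeptide, read 1086, 1060 and 1082 in db/db and 1201 and 1461 in db/+, without overlap (log2 change −0.30, SE 0.16, adjusted p = 0.699). The C-proteinase Bmp1 and the lysyl oxidase genes Lox and Loxl4 had −0.37, −0.17 and 0.19, each with an interval that includes 0.

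Collagen receptors also had 0 past the threshold among 9 tested of 15 (median −0.05). With an unadjusted p under 0.05, which called 4.15% of all tested probe sets lower, 2 receptors were lower. They were Mrc1, the macrophage mannose receptor that also takes up collagen (log2 change −0.73, SE 0.26, adjusted p = 0.496), and Adgrg1, a receptor for type III collagen (−0.52, SE 0.23, adjusted p = 0.605). Cd36 and the discoidin domain receptor Ddr1 had −0.60 and −0.30. Mrc1 is also a macrophage gene, and the summed macrophage markers were lower in every db/db pool; their part in this value was not tested.

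Of the collagen-degrading enzymes and their inhibitors, 15 of 21 were tested and 0 passed the threshold, with 3 lower and 1 higher at an unadjusted p under 0.05. By the latter rule 4.15% of all tested probe sets were lower and 3.98% higher. Timp4, an inhibitor of matrix metalloproteinases, read 190, 194 and 206 in db/db against 404 and 429 in the db/+ pools (log2 change −1.02, SE 0.15, adjusted p = 0.059). Ctss, the macrophage protease cathepsin S, read 284, 207 and 223 against 406 and 507 (log2 change −0.90, SE 0.19, adjusted p = 0.191). Mmp3, stromelysin, read 155, 152 and 132 against 226 and 288 (log2 change −0.75, SE 0.17, adjusted p = 0.233). In all 3 the genotypes were well apart. Pepd, which releases proline from collagen peptides, was higher at an unadjusted p under 0.05 (log2 change 0.46, SE 0.16, adjusted p = 0.494), and the list's median was −0.06. Macrophage markers moved with Ctss as with Mrc1, and that was not tested either.

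**Figure D4:**
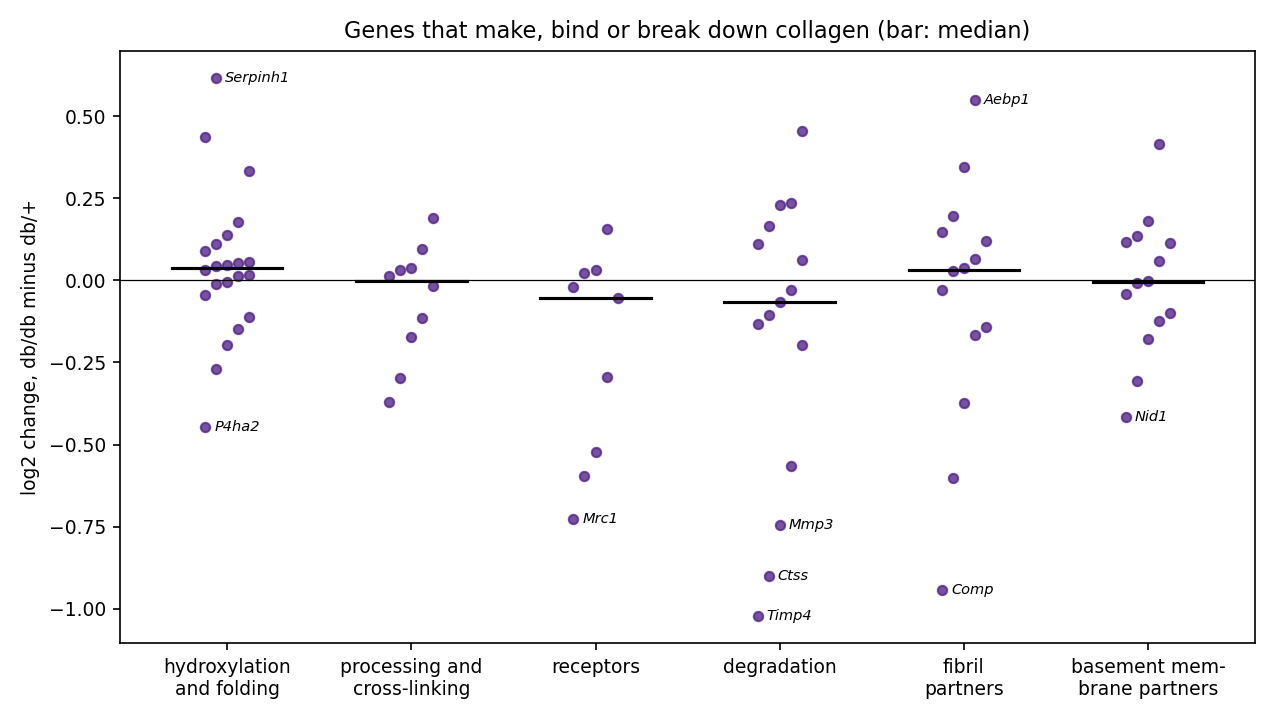
Log2 change between genotypes (y axis, db/db minus db/+) of the tested members of 6 gene lists around collagen (x axis), 1 point per gene at its brightest probe set, with the median as a bar. Medians lie between −0.06 and 0.04, and the points farthest from 0 are Timp4 at −1.02, Comp at −0.94 and Ctss at −0.90.

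Partners in the fibril and in the basement membrane completed the lists. Of 14 tested fibril partners of 15, 0 passed, and 1 was higher and 2 lower at an unadjusted p under 0.05 (median 0.03). Over all tested probe sets the latter rule called 3.98% higher and 4.15% lower. Comp, which bridges collagen fibrils in cartilage and tendon, read 143, 105 and 141 in db/db against 261 and 263 in the db/+ pools (log2 change −0.94, SE 0.18, adjusted p = 0.133). The fibril proteoglycan Fmod had −0.60 (SE 0.20, adjusted p = 0.452), the carboxypeptidase-like matrix protein gene Aebp1 had 0.55 (SE 0.17, adjusted p = 0.421), and Fn1, fibronectin, had −0.37 (SE 0.17, adjusted p = 0.629). Comp and the aggrecan gene Acan (103, 112 and 99.4 against 167 and 237; log2 change −0.83, SE 0.18, adjusted p = 0.203) were the only tested members of a list of cartilage markers. The other 7 measured cartilage markers, like Col2a1, Col9a2, Col9a3 and Col10a1, were below the filter. The cartilage collagen Col9a1, which passed it, had a positive log2 change of 0.23 (SE 0.20, adjusted p = 0.838), with overlapping genotypes.

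Of 14 tested basement membrane partners of 20, 0 passed (median −0.0047). The rule of an unadjusted p under 0.05, which called 4.15% of all tested probe sets lower, called 1 partner lower. That was Nid1, which ties laminin to type IV collagen and read 369, 393 and 381 in db/db against 543 and 486 in the db/+ pools (log2 change −0.42, SE 0.15, adjusted p = 0.525). Npnt, nephronectin, read 3042, 2239 and 2966 against 2263 and 1834 (log2 change 0.42, SE 0.19, adjusted p = 0.644). Lamb1 and Smoc1 had −0.31 and −0.18. All db/db arrays were below both controls for Nid1 and above both for Col4a1, a chain of the network Nid1 binds; the difference between the genes was not tested.

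Fibroblast markers, of cells that make fibrillar collagen, summed over 9 genes to 12968, 11366 and 11377 in db/db and to 10805 and 11261 in db/+. The db/db sums were all above the controls, the nearest pair being 11366 and 11261. Dcn gave the largest part of each sum, with 4900, 4403 and 4302 against 4060 and 4117. Of the 9 genes, 6 had a positive log2 change and 3 a negative one, and 0 had an unadjusted p under 0.05. Smooth muscle sums were 31893, 29568 and 26287 against 23842 and 27091, which overlap. Both sums were highest in db/db replicate 1. On that array 16 of the 25 tested collagen genes were above the mean of both db/+ arrays, against 15 and 11 in db/db replicates 2 and 3. Of all 8263 genes tested, 4575 were above that mean in db/db replicate 1. That array had the lowest sums of fat, endothelial and heart muscle markers (13012, 1440 and 685), but not of macrophage markers (3065). The part of these cell types in the collagen values was not tested.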

How the data were processed

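Each deposited value is a probe set's signal intensity on a linear scale; the submitters' processing notes name MAS5 without a version, and a genome build is not given in the sources used here. The 2% trimmed mean ran from 150.049 to 150.053 across arrays, and the values were normalized no further. Control probe sets (64) were left out. Names came from the platform annotation, and Entrez identifiers of all 58 collagen probe sets matched the RefSeq gene table of GRCm38.p6.

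Signals were taken to log2(signal + 16), and probe sets with a mean above the 40th percentile (a signal of about 39.5) entered a two-sided test of genotype alone in limma 3.58.1 under R 4.3.3 (lmFit, then eBayes). Benjamini-Hochberg adjustment covered all of them, at a threshold of 0.05. The fit was tested on simulated data with spreads drawn from its own fitted prior and changes of at least 2-fold. That test does not cover changes as small as those of the collagens. A gene is represented by its probe set with the highest mean. Basement membrane means types IV, XV and XVIII; fibrillar means types I, II, III, V, XI, XXIV and XXVII.

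Genes named with values in every array were, in each class, up to 8 with the smallest p, the 4 brightest, and those with probe sets of opposite sign; of each pathway list, up to 4 with the smallest p were named. Col25a1, Acan and genes below the filter were named outside this rule. Members and lists were chosen with earlier results of these data known. Alternatives covered the pseudocount, filter, normalization, eBayes options and threshold, weights per array, a replicate block, each array left out in turn, and averaging over probe sets of a gene. The series' design text calls the pools independent, so differences between genotypes were judged against the spread between pools. The eBayes step draws each probe set's variance towards that of all tested probe sets, with 3 residual and 5.63 prior degrees of freedom. The number of arrays limits the precision.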

Additional observations from a re-analysis of the deposited data

How the results depend on the processing

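No collagen probe set passed the threshold under any setting run, including a threshold of 0.1. The count over all probe sets was 11, against 1 with a pseudocount of 1 and 35 with 64, 1 with no filter and 22 with a filter at the 60th percentile, 19 with median centring, 39 with trend and robust eBayes, 48 with array weights, 48 at a threshold of 0.1, and 0 to 28 with each array left out. With the replicate number as a block it was 20. Replicates 2 and 3 are the only shared numbers, and the numbers were not treated as pairs. Deviations of same-numbered arrays correlated at 0.11 and −0.0048. For db/db replicate 1, which has no partner, the values were −0.11 and 0.11. With 2 db/+ arrays their deviations mirror each other, so these correlations cannot show whether the numbers mark pairs.

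Collagen probe sets lower at an unadjusted p under 0.05, 0 in the report, were 2 with a pseudocount of 64 and with median centring, 1 with quantile normalization, array weights, the replicate block or the 60th percentile filter, and 0 to 2 with each array left out. Those higher, 1 in the report, were 2 with either pseudocount, the 60th percentile filter and trend and robust eBayes, and 0 to 2 with each array left out (0 without db/+ replicate 2).

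Leaving out each array, the fibrillar median ranged from −0.25 to 0.20 and the basement membrane median from 0.12 to 0.25. Positive fibrillar genes numbered 1 of 6 with quantile normalization, and positive other genes 1 of the 5 tested with the 60th percentile filter, against 3 of 11. Counts by direction and of arrays without overlap were added after seeing the data. Leaving out each array, non-overlapping probe sets numbered 6 to 7 (basement membrane, higher), 0 to 1 (basement membrane, lower), 1 to 7 (fibrillar, higher) and 3 to 7 (fibrillar, lower). Over all tested probe sets the shares then were 18.4% to 26% higher and 17.5% to 23.8% lower, against 13.1% and 11.9% with all arrays.

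Some signs turned. With quantile normalization Col1a2 had −0.025, Col1a1 −0.029 and Col4a2 −0.018. With array weights Col1a1 had −0.024, Col4a2 −0.029 and Col14a1 0.0012. With the replicate block Col1a1 had −0.024, Col4a5 0.10 and Col4a2 −0.031. The block gives the same log2 changes as leaving out db/db replicate 1, so it is no separate estimate. With median centring Col4a2 had −0.035. Averaging over probe sets gave Col1a1 −0.19, Col5a1 0.0195 and Col4a5 0.027. With each array left out the ranges that cross 0 were −0.25 to 0.18 (Col5a1), −0.25 to 0.35 (Col1a1), −0.079 to 0.46 (Col4a6), −0.12 to 0.10 (Col4a5), −0.12 to 0.12 (Col4a2), −0.44 to 0.0040 (Col8a1), −0.0074 to 0.25 (Col7a1), −0.25 to 0.10 (Col25a1) and −0.054 to 0.062 (Col14a1). The causes were not tested. Col15a1 kept its sign in all 15 alternatives, with log2 changes from 0.44 to 0.63 and adjusted p of at least 0.322. Not all of these could move its log2 change. The filters, the eBayes options and averaging over its only probe set leave it at 0.52 by construction. Signals near 39.5 and the number of arrays limit the low members.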
